A study of Mus musculus with 12 samples.

Results

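The cluster of miR-290 to miR-295 is a group of mouse miRNAs made in early embryos and in embryonic stem cells. Its 7 members on the array (mmu-miR-290-3p, mmu-miR-291a-3p, mmu-miR-291b-3p, mmu-miR-292-3p, mmu-miR-293, mmu-miR-294 and mmu-miR-295, written without the species prefix from here on) were taken by name from the 710 miRNAs and star sequences (the rarer strand of a hairpin) measured. They were chosen because they are thought to be silent in adult blood, so that their signals can be used to judge the background of each array and of each genotype.

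Blood was taken from 6 mice deficient in Tff2 (Tff2-KO, 129/SV strain, generated earlier) and 6 wild-type mice (WT, 129/SV, bought from a breeder), each genotype with 3 females and 3 males. Tff2 encodes trefoil factor 2, a small peptide of the gastric mucosa. Both groups were kept untreated in the same specific pathogen-free facility. Their age is not given in the sources used here. The origin of the mice and their genotype cannot be told apart. Total RNA with miRNA from the pelleted blood cells was hybridized to 1 array per mouse, a Geniom biochip carrying each miRNA at 7 spots. The array holds miRNA probes alone, so Tff2 mRNA was not measured. In whole blood, fewer cells of a type and less RNA per cell cannot be told apart.

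The cluster is transcribed as a single long precursor, from which hairpins are cut that each give a strand from the 3′ arm, a member, and a strand from the 5′ arm. Its main products belong to a family with the seed AAGUGC, shared with the miR-302 cluster, which in mouse embryonic stem cells speeds the cell cycle past the G1 restriction and holds back differentiation. A seed is the stretch of a miRNA that pairs with its target mRNAs. The cluster is shut off as cells differentiate. The miR-17 family, which is made in dividing blood cells, carries nearly the same letters, moved by a base.

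The mature sequences of 6 of the 7 members were matched by name in RefSeq (GRCm38.p6) and are shown here from 5′ to 3′ because the strands are alike over much of their length. Capitals mark the seed, bases 2 to 8. A member of the miR-302 cluster and one of the miR-17 family follow for comparison.
miR-290-3p: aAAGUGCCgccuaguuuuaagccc
miR-291a-3p: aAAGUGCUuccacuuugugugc
miR-291b-3p: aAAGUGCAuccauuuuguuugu
miR-293: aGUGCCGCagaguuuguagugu
miR-294: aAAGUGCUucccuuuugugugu
miR-295: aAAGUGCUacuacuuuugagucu
miR-302b: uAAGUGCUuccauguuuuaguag
miR-17: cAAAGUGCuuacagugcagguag

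The 6 strands lie on the plus strand of chromosome 7, miR-290-3p at chr7:3218674-3218697, miR-291a-3p at chr7:3218968-3218989, miR-291b-3p at chr7:3219529-3219550, miR-293 at chr7:3220390-3220411, miR-294 at chr7:3220691-3220712 and miR-295 at chr7:3220815-3220837. miR-302b lies at chr3:127545275-127545297 and miR-17 at chr14:115043684-115043706, both on the plus strand. Of the 7 hairpins, 6 lie inside the long non-coding RNA gene D7Ertd143e, and the span of the protein-coding gene Nlrp12 overlaps all 7. miR-291a-3p, miR-294 and miR-295 carry the same seed AAGUGCU as miR-302b and miR-302d. miR-290-3p has the seed AAGUGCC and miR-291b-3p the seed AAGUGCA. miR-293 has a seed of its own, GUGCCGC. The longest run of letters that miR-294 shares with miR-17 is 9 bases and with miR-291a-3p 11 bases, whereas miR-293 shares at most 5 bases with the miR-17 family.

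To judge background, the floor of an array was set at the size of its lowest value. The deposited intensities are background-subtracted, in arbitrary units, so a probe with no signal can read below 0. The floor assumes that it can read as far above 0, which was not tested. Apart from miR-294, no member read below 0 on any array, so the members did not show an even spread about 0. Whether they were silent or the floor was set too low was not tested. The floor was 32 to 88 (mean 51.3 ± 20.5, SD, n = 6) on Tff2-KO arrays and 40 to 76 (48.7 ± 14.2, n = 6) on WT arrays. The floors of the genotypes overlapped (exact permutation test, two-sided, p = 0.831, adjusted over 2 measures 0.831). The median intensity of all miRNAs was 94.0 ± 22.7 in Tff2-KO and 102.7 ± 16.7 in WT mice (exact permutation p = 0.481, adjusted 0.831). The number of miRNAs that read below 0 was 20 to 43 on Tff2-KO arrays and 14 to 25 on WT arrays. Every Tff2-KO array but that of mouse 1, at 20, exceeded all WT arrays in this number. This difference was not tested, so the background was not shown to be alike in the genotypes. All 84 member values were multiples of 4, as were 91.3% of the 8520 values in the table, so the members moved in steps of 4. Up to 27 miRNAs on a Tff2-KO array and up to 38 on a WT array had the same value.

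Except for miR-293, the members read close to the floor in both genotypes. In Tff2-KO mice 21 of 42 member readings (50%) lay above the floor of their array, where 71.8% of the readings of all miRNAs did so. In WT mice 29 of 42 (69.0%) lay above it, against 77.0% for all miRNAs. A single member, miR-293, was above the floor on all 12 arrays, as were 42.3% of all miRNAs. A single member, miR-294, was above it on none, as were 4.51% of all miRNAs.

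**Figure D1:**
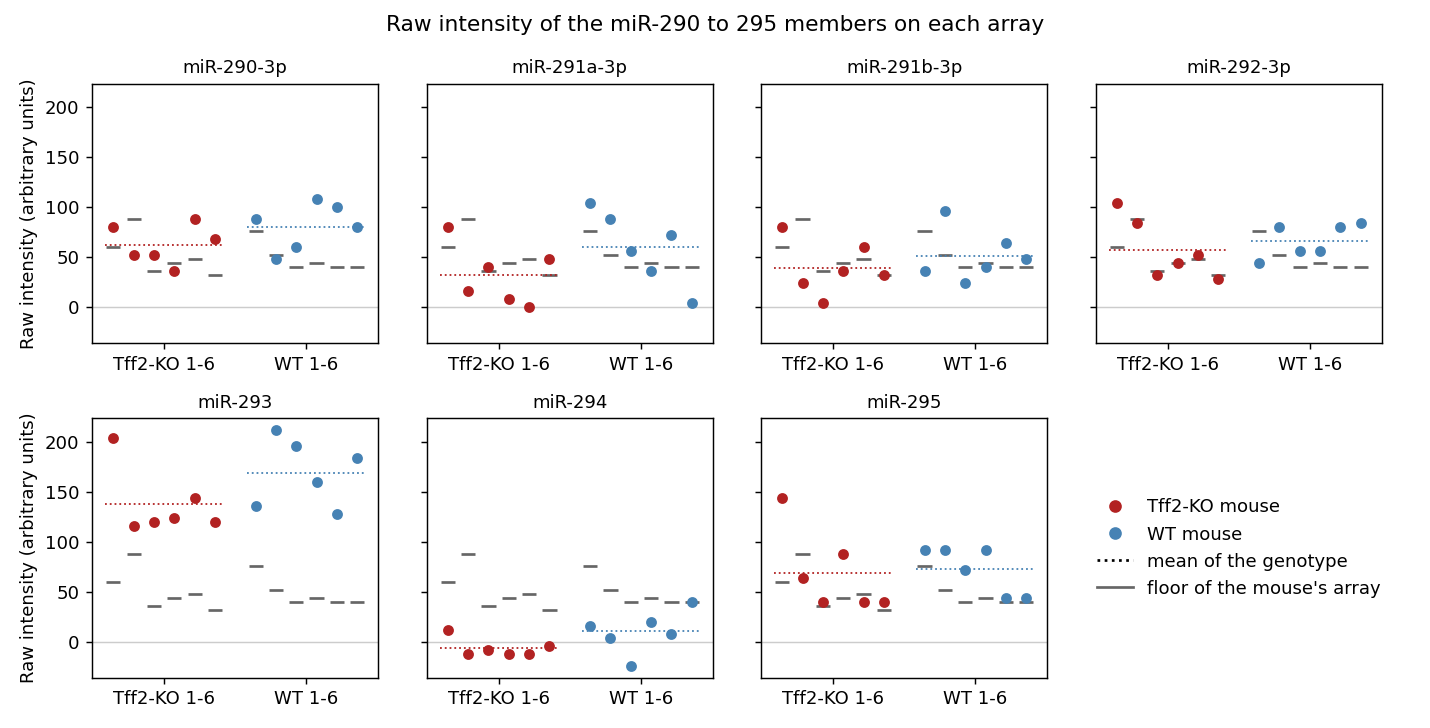
Raw intensity (arbitrary units, y axis) of the 7 members on the arrays of the Tff2-KO mice 1 to 6 (red) and the WT mice 1 to 6 (blue), with the floor of each array as a grey bar and the mean of each genotype as a dotted line. miR-293 lies above the floor on all 12 arrays, miR-294 at or under it on all 12, and the other 5 members scatter around it.

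miR-293, the member that departs from the family seed, read 116 at the lowest, 122 at the median and 204 at the highest in Tff2-KO mice. In WT mice it read 128, 172 and 212. It lay at a median of 3.17 times the floor in Tff2-KO and 3.86 times in WT mice. The ranges overlapped, with 4 Tff2-KO mice below all 6 WT mice and Tff2-KO mouse 1 below the highest WT mouse alone. On 11 of the 12 arrays miR-293 exceeded the median of all miRNAs, and on the other one, from Tff2-KO mouse 2, it equalled it at 116. Its place in the array thus lay in the middle to upper range, with 49.4% to 77.9% of the miRNAs dimmer. After quantile normalization, which gives all arrays the same distribution of values, its geometric mean was 143.3 in Tff2-KO and 172.9 in WT mice. The log2 difference of Tff2-KO over WT was −0.27 (SE 0.21, 95% interval −0.73 to 0.19), and the adjusted p of limma over all miRNAs was 0.644.

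miR-294, an abundant family member in mouse embryonic stem cells, gave no signal above the floor on any of the 12 arrays. It read −12, −10 and 12 (lowest, median, highest) in Tff2-KO mice. In WT mice it read −24, 12 and 40. The value was below 0 in 5 Tff2-KO mice and in 1 WT mouse, and the ranges overlapped. Because values under the floor have no order, no fold is given. The test of the normalized values gave an unadjusted p of 0.0249 and an adjusted p of 0.482 (limma), in the direction of lower values in Tff2-KO mice. At unadjusted p under 0.05, 5.63% of all miRNAs were lower in Tff2-KO mice and 9.44% differed in either direction. Over the whole array, a median of 32.5 miRNAs read below 0 on Tff2-KO arrays and 20.5 on WT arrays, and the part of this in the result was not tested.

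miR-291a-3p and miR-295 carry the same seed as miR-294. miR-291a-3p read 0, 28 and 80 (lowest, median, highest) in Tff2-KO mice and 4, 64 and 104 in WT mice. It was above the floor on 3 Tff2-KO arrays and 4 WT arrays, and the genotypes overlapped over most of its range. miR-295 read 40, 52 and 144 in Tff2-KO mice and 44, 82 and 92 in WT mice. It was above the floor on 4 Tff2-KO arrays and on all 6 WT arrays, and Tff2-KO mouse 1 read higher than any WT mouse. The log2 difference of Tff2-KO over WT was −0.19 (SE 1.08, 95% interval −2.55 to 2.17, adjusted p = 0.954, limma) for miR-291a-3p. For miR-295 it was 0.03 (SE 0.30, 95% interval −0.63 to 0.69, adjusted p = 0.962, limma), with geometric means of 66.9 in Tff2-KO against 65.4 in WT mice. With some other scalings the difference of miR-291a-3p was larger, −1.35 with no normalization and −1.42 with median scaling. It was −1.42 with upper quartile scaling of all miRNAs, −1.78 with that of the miRNAs above the floor and −1.09 with cyclic loess. Nearer to the main fit were −0.31 with the authors' normalized values, −0.21 with normexp and −0.37 with a value added before log2. The lowest readings, 0 in Tff2-KO and 4 in WT mice, were below the floor, and their part in these differences was not tested. The interval of miR-291a-3p is so wide that a change of several fold either way was not detectable.

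miR-290-3p, the first member of the cluster, read 36, 60 and 88 in Tff2-KO mice and 48, 84 and 108 in WT mice. It was above the floor on 4 Tff2-KO and 5 WT arrays. miR-291b-3p read 4, 34 and 80 in Tff2-KO mice and 24, 44 and 96 in WT mice, above the floor on 2 Tff2-KO and 3 WT arrays. For both members the genotypes overlapped over most of their range. miR-292-3p read 28, 48 and 104 in Tff2-KO mice and 44, 68 and 84 in WT mice. It was above the floor on 2 Tff2-KO arrays but on 5 WT arrays, while Tff2-KO mouse 1 had the highest reading of all 12. The log2 differences of Tff2-KO over WT were −0.11 (SE 0.33) for miR-290-3p, −0.28 (SE 0.57) for miR-291b-3p and −0.09 (SE 0.27) for miR-292-3p, with adjusted p-values of 0.920, 0.875 and 0.921 in limma. Their 95% intervals ran between −0.82 and 0.60 for miR-290-3p, between −1.52 and 0.95 for miR-291b-3p and between −0.67 and 0.50 for miR-292-3p.

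Of the 7 members, 6 had a lower normalized mean in Tff2-KO mice, as did 352 of all 710 miRNAs. Among the 6 was miR-294, which was at or under the floor on every array. The median log2 difference of the list was −0.19, against 0.01 over all 710 miRNAs. Leaving out single mice gave 4 to 7 lower members. None of the 7 passed the adjusted threshold of 0.05, as none of the miRNAs on the array did (0.0% of 710, limma, smallest adjusted p 0.171). At unadjusted p under 0.05 limma gave 67 of the 710 miRNAs and the methods' t-test 70. Of the members only miR-294 was among the 67.

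**Figure D2:**
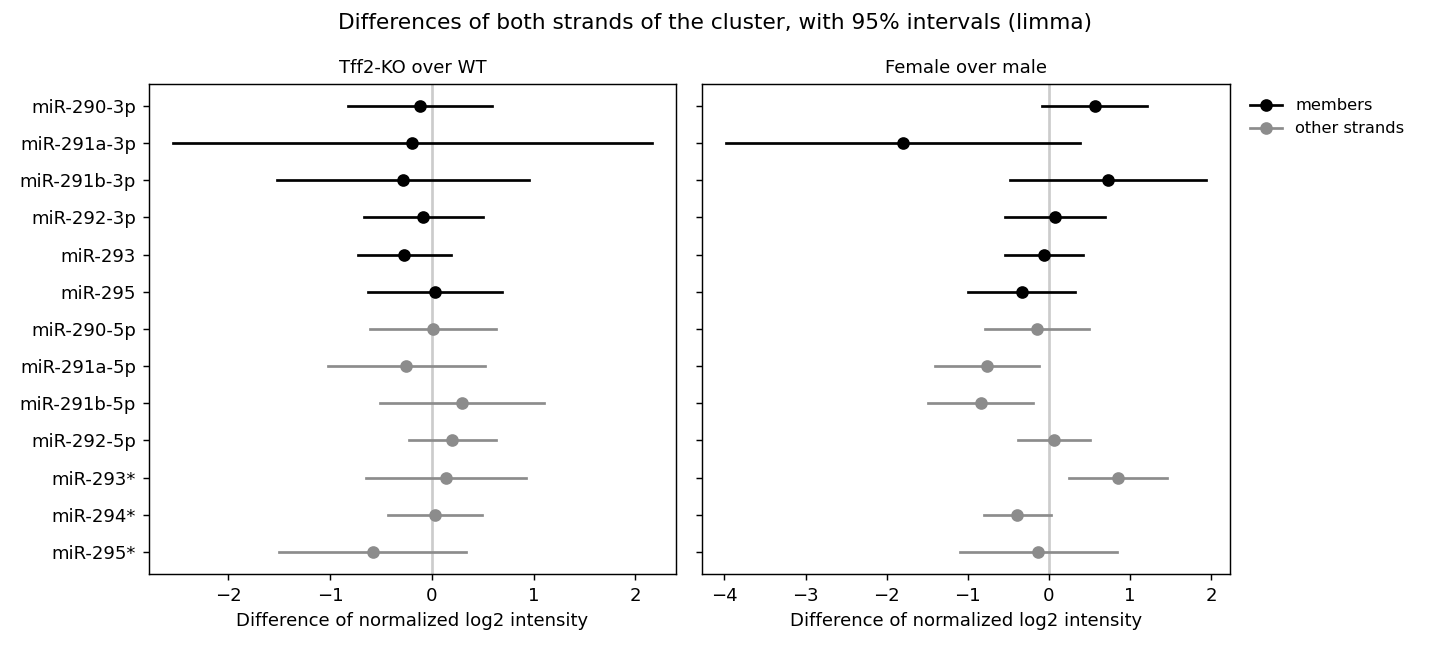
Log2 differences (x axis, normalized intensity) of 6 members (black) and the 7 other strands of the hairpins (grey) for Tff2-KO over WT (left) and female over male (right), with 95% intervals from limma. miR-294 is not drawn because it was at or under the floor on all 12 arrays. All 13 genotype intervals include 0, and 3 intervals of the other strands for sex do not.

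By array, the mean raw intensity of the 7 members was 40.0 to 100.6 (median 48.3) in Tff2-KO mice and 62.9 to 88.6 (median 72.0) in WT mice. The highest of all 12 was Tff2-KO mouse 1, whose array also had the highest median of all miRNAs, 128. The other 5 Tff2-KO mice all lay below the 6 WT mice, while the medians of all miRNAs were 72 to 116 on those 5 arrays and 80 to 120 on the WT arrays. On the array of Tff2-KO mouse 2, whose floor of 88 was the highest, 1 member was above the floor, and on that of mouse 1 there were 6. On the WT arrays 4 to 6 members were above it. Of the 7 members, 5 or 6 read below the median of all miRNAs on each Tff2-KO array and 4 or 6 on each WT array.

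Correlations between the members are given as a description. The median Pearson r between the 21 pairs of members over the 12 arrays was 0.06, and the pairs ran between −0.27 and 0.64. The pair with the highest r was miR-291b-3p with miR-292-3p. Over the 251695 pairs of all miRNAs the median was −0.01, and the pairs ran between −0.97 and 0.99. These correlations share arrays, and much of their range lies at the floor. The miRNA most like the mean of the members was miR-669j (r = 0.76, rho = 0.74, 12 arrays), with a raw median of 304. It was followed by miR-463* (r = 0.72), miR-504 (0.70), miR-466f-3p (0.69) and miR-879 (0.69).

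The sex of the mice was tested in a model with the genotype, and raw values are again the lowest, the median and the highest. At unadjusted p under 0.05 none of the 7 members differed between females and males, where 7.89% of all miRNAs did. miR-290-3p read 36, 84 and 108 in females and 48, 56 and 88 in males, a log2 difference of female over male of 0.57 (SE 0.29, adjusted p = 0.618, limma). miR-291a-3p read 0, 22 and 72 in females and 16, 68 and 104 in males, above the floor on 2 female and 5 male arrays. Its log2 difference was −1.80 (SE 0.99, adjusted p = 0.634, limma). Females and males overlapped for both. The other 4 members with readings above the floor had log2 differences of 0.73 for miR-291b-3p, 0.08 for miR-292-3p, −0.06 for miR-293 and −0.33 for miR-295, with adjusted p-values of 0.764 to 0.935 in limma.

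The difference of the genotype effect between females and males was tested too, and at unadjusted p under 0.05 it was met by none of the members and by 10.0% of all miRNAs. miR-293 had log2 differences of Tff2-KO over WT of 0.07 in females and −0.61 in males, and the difference between these had an adjusted p of 0.549 (limma). miR-294 read −12, −12 and −4 in Tff2-KO females and 20, 8 and 40 in WT females, which did not overlap. Of all 710 miRNAs, 13.5% had all Tff2-KO females below all WT females in raw intensity, and of the members miR-292-3p did so too. After quantile normalization miR-292-3p overlapped between them. The raw medians of all miRNAs were 84, 76 and 72 on the arrays of Tff2-KO females and 120, 80 and 116 on those of WT females. The part of this in the raw separations was not tested. In males miR-294 read 12, −12 and −8 in Tff2-KO and 16, 4 and −24 in WT mice, which overlapped. All of these miR-294 readings were at or under the floor. For miR-294 the difference of the genotype effect between the sexes gave an unadjusted p of 0.0509 and an adjusted p of 0.498 (limma).

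The 7 other strands of the same hairpins gave a second reading of the cluster. All 7 were matched in RefSeq, and 3 of them are shown. miR-292-5p was above the floor on all arrays, and miR-291a-5p and miR-291b-5p share 20 of their 22 letters in 1 run. Capitals again mark bases 2 to 8.
miR-292-5p: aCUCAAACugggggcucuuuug
miR-291a-5p: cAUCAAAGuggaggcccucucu
miR-291b-5p: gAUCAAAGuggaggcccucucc

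Of the readings of these strands, 71.4% lay above the floor in Tff2-KO mice, against 83.3% in WT mice. miR-292-5p read 80, 126 and 164 in Tff2-KO and 88, 98 and 156 in WT mice, and was above the floor on all 12 arrays. In RefSeq it lies at chr7:3219200-3219221. miR-291a-5p lies at chr7:3218932-3218953 and miR-291b-5p at chr7:3219494-3219515, all on the plus strand. miR-294*, the partner of miR-294, was also above it on all 12, at 48, 82 and 136 in Tff2-KO and 52, 86 and 132 in WT mice. Both overlapped between the genotypes over nearly their whole range. miR-293*, the partner of miR-293, was above the floor on 10 arrays, and miR-290-5p, that of miR-290-3p, on 7, with a log2 difference of Tff2-KO over WT of 0.01. None of the 7 differed between the genotypes at unadjusted p under 0.05 in limma, where 9.44% of all miRNAs did. Their log2 differences of Tff2-KO over WT ran between −0.58 (miR-295*, SE 0.42, adjusted p = 0.631, limma) and 0.30 (miR-291b-5p, SE 0.37, adjusted p = 0.809, limma).

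By sex, 3 of these 7 strands had an unadjusted p under 0.05 where 7.89% of all miRNAs did, and none passed after adjustment. miR-293* read 72, 124 and 160 in females and 48, 76 and 140 in males, a log2 difference of female over male of 0.86 (SE 0.27, unadjusted p = 0.00959, adjusted p = 0.512, limma). The near-identical miR-291a-5p and miR-291b-5p both read lower in females. miR-291a-5p read 20, 68 and 80 in females and 76, 108 and 152 in males, a log2 difference of −0.76 (SE 0.29, adjusted p = 0.543, limma). miR-291b-5p read 20, 36 and 44 in females and 40, 72 and 104 in males, a log2 difference of −0.84 (SE 0.29, adjusted p = 0.512, limma). The sexes overlapped narrowly for both. For miR-291b-5p the genotype effect differed between females and males by 1.29 on the log2 scale (SE 0.45, unadjusted p = 0.0173, adjusted p = 0.450, limma), with Tff2-KO over WT differences of 0.94 in females and −0.35 in males. With 20 shared letters these probes are not separate evidence, and miR-291b-5p was above the floor on 1 female array.

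The miR-302 cluster, which also holds miR-367, is the other miRNA group of embryonic stem cells, and its main strands read near the floor too. Of its 8 probes none was above the floor on all arrays, and 43.8% of the Tff2-KO readings and 50% of the WT readings lay above it. miR-302b, with the seed AAGUGCU, read −40 to 56 with a median of −12 over the 12 mice and was above the floor on 1 array. miR-302d, with the same seed, read −12 to 92 with a median of 32 and was above it on 2 arrays. miR-302a and miR-302c were above it on 3 arrays each. The other 4 probes, which are miR-367 and the star strands, were above it on 8 to 11 arrays. None of the 8 differed between genotypes at unadjusted p under 0.05 in limma, where 9.44% of all miRNAs did, so few were to be met among 8.

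The miR-17 family read far above the floor. All 6 of its miRNAs, which share the seed AAAGUGC, were above the floor on all 12 arrays, with raw medians of 852 (miR-20b) to 10270 (miR-106b). The longest run shared with a miR-17 family miRNA was 9 bases for miR-294, miR-291a-3p and miR-295, which were above the floor on 0, 7 and 10 arrays. It was 7 bases for miR-290-3p and miR-291b-3p, above the floor on 9 and 5 arrays, and 5 bases for miR-293, above it on 12. miR-292-3p is left out because its sequence was not matched. Whether a member's reading holds signal from another miRNA was not tested.

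Lists of miRNAs known from other tissues were counted in the same way. Muscle miRNAs (n = 7, among them miR-1, miR-133a and miR-206) were above the floor in 52.4% of the Tff2-KO and 64.3% of the WT readings. Neuronal miRNAs (n = 8, among them miR-9 and miR-124) were above it in 52.1% of the Tff2-KO and 64.6% of the WT readings. For the miRNAs of liver, pancreas and eye (n = 11) it was 65.2% in Tff2-KO, against 66.7% in WT mice. The 14 miRNAs of blood cells were above it in 89.3% of the Tff2-KO and 88.1% of the WT readings. Of these, 11 were above the floor on all 12 arrays, among them the red cell miRNAs miR-486, with a median of 29237, and miR-451, with 1367, and the myeloid miR-223, with 1413. The exceptions were miR-142-3p, above it on 1 array, miR-155 on 5 and miR-181a on 11. miR-142-3p is abundant in blood cells, so a reading at the floor does not show that a miRNA was missing.

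**Figure D3:**
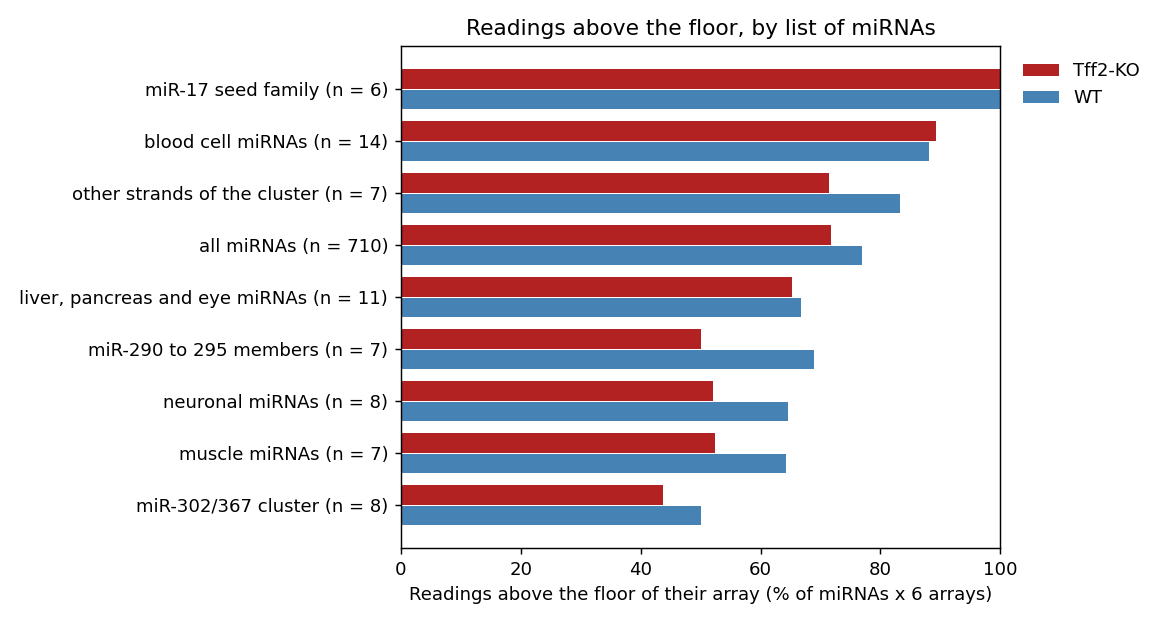
Share of readings above the floor of their array (x axis, %) for the members, 7 other lists and all miRNAs, in Tff2-KO (red, upper bar) and WT mice (blue, lower bar). The members, at 50% in Tff2-KO against 69.0% in WT mice, sit near the muscle and neuronal miRNAs and between the miR-302 cluster and the miR-17 family.

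The summed raw intensity of the 7 members was 280 to 704 (median 338) in Tff2-KO mice and 440 to 620 (median 504.0) in WT mice. For the 8 probes of the miR-302 cluster it was 156 to 596 (median 268) in Tff2-KO and 348 to 480 (median 366) in WT mice. For the muscle miRNAs the median sum was 600.0 in Tff2-KO and 568 in WT mice. For the neuronal miRNAs it was 1066 in Tff2-KO and 950 in WT mice. The miRNAs of liver, pancreas and eye had sums of 852 to 5485 (median 3967) in Tff2-KO and 924 to 8418 (median 2168) in WT mice. The 14 blood miRNAs had sums of 79700 to 190849 (median 114500) in Tff2-KO and 53488 to 183563 (median 83570) in WT mice. Sums of different probes are not amounts of RNA and are compared only between genotypes. Each of these sums overlapped between the genotypes.

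How many member readings counted as signal depended on the floor. With the floor at 0, 85.7% of the readings in Tff2-KO and 97.6% in WT mice lay above it, where 94.2% of all readings in Tff2-KO and 96.2% in WT mice did. With the size of the 1st percentile of each array the members had 73.8% in Tff2-KO and 88.1% in WT mice, and all miRNAs 85.5% in Tff2-KO and 91.7% in WT mice. At 2 times the size of the lowest value 7 of 42 readings (16.7%) in Tff2-KO and 9 of 42 (21.4%) in WT mice were left, and of all readings 47.9% in Tff2-KO and 52.0% in WT mice. A fixed intensity of 100 left 8 of 42 (19.0%) in each genotype, where it left 46.1% of all readings in Tff2-KO and 50.3% in WT mice. In each genotype 6 of these 8 readings were of miR-293, whose lowest value was 116.

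**Figure D4:**
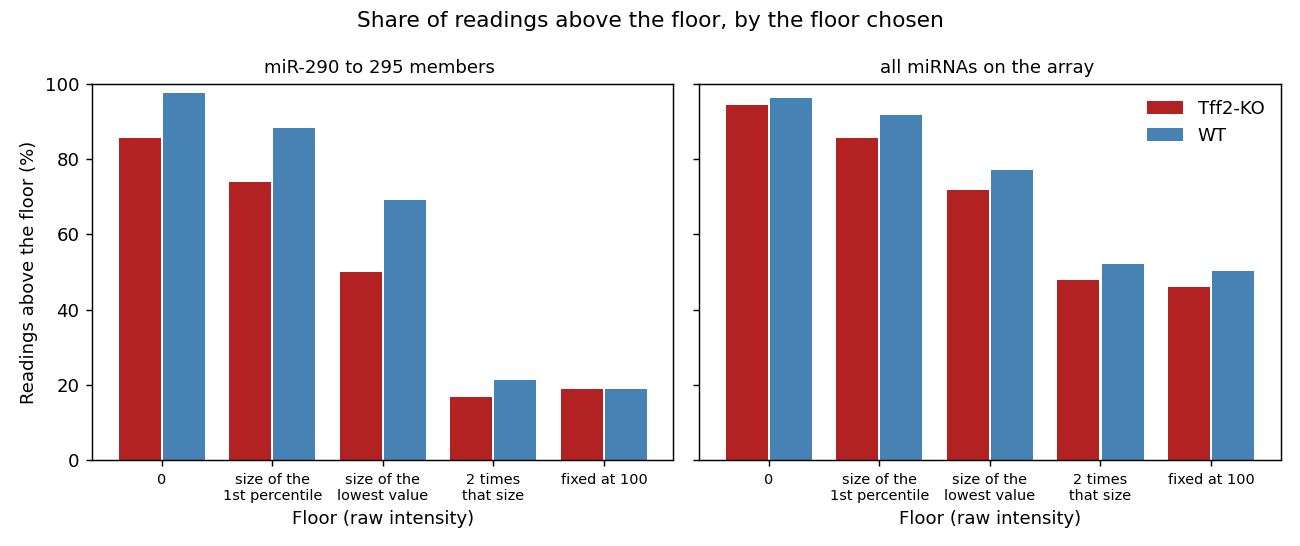
Share of readings above 5 choices of the floor (x axis, raw intensity) in Tff2-KO (red) and WT mice (blue), for the 7 members (left) and for all 710 miRNAs (right). The gap between the genotypes in the members, 50% in Tff2-KO against 69.0% in WT mice at the size of the lowest value, is 0 at a fixed intensity of 100. There miR-293 gives 6 of the 8 readings left in each genotype, so little is seen of the other members.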

How the data were processed

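miRNAs of 12 mice, 6 Tff2-KO and 6 WT, were read in pelleted blood cells on 1 array per mouse, by biotin labelling on the chip. The authors corrected the median signal of every spot for background and summarized the 7 spots of a miRNA by their median. The deposited raw table holds these intensities, not normalized between arrays. A second deposited table holds linear intensities that the authors had quantile normalized. Arrays give no counts, and the number of arrays limits the precision.

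Quantile normalization across all 12 arrays was run on the raw intensities, values under 1 were set to 1, and log2 values were tested with limma 3.58.1 in R 4.3.3 (lmFit and eBayes, Benjamini-Hochberg over all 710 miRNAs, threshold 0.05). Against the deposited normalized table, the values differed by a median of 0.05 on the log2 scale. Sex was fitted beside genotype, and the 4 combinations of both gave the test of the difference. Two-sided exact permutation tests of the array floor and median, tables and figures used Python 3.11.15. Fits were tested on simulated data. The p-values set a difference against the spread between mice, each an animal of its own. In limma the spread of a miRNA is drawn towards that of all 710 miRNAs.

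The members and the lists (other strands, miR-302 cluster, miR-17 family, blood, muscle, neuronal, and liver, pancreas and eye miRNAs) were chosen with earlier results of these data known. Named are all members and other strands, single miRNAs of the miR-302 and miR-17 lists, at most 3 of each other list by the smallest genotype p, and the 5 miRNAs most like the members' mean over the arrays. miR-486, miR-451, miR-223 and miR-155, and the examples of the muscle and neuronal lists, are named beside these as known markers. Alternatives were the deposited table, other scalings, cyclic loess, normexp, an added value, a filter on dim miRNAs, sex, a replicate block, the methods' t-test, other floors, and leaving out each mouse.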

Additional observations from a re-analysis of the deposited data

Results flagged for a closer look

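In 5 of 32 sets of 6 mice examined, 1 mouse stood apart from the other 5 of its genotype (Dixon's test at the 95% level), where chance gives about 1 in 20, or 1.6 sets. The floor of WT mouse 1 was 76.0, where those of the other WT mice were 40.0 to 52.0, and 4 of its 7 members were above it. miR-291a-3p was at 1.0 (normalized intensity) in WT mouse 6, where the other 5 WT mice had 25.7 to 112. Its raw reading there was 4, below the floor. miR-294 was at 4.67 in Tff2-KO mouse 1, where the other Tff2-KO mice had 1.0 to 1.33, all of them below the floor. miR-291a-5p was at 29.0 in Tff2-KO mouse 5, where the others had 72.2 to 107. miR-295* was at 103 in WT mouse 5, where the others had 45.2 to 59.7.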

How the results depend on the processing

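No member passed the adjusted threshold between genotypes under any alternative, with a smallest adjusted p of 0.246 to 0.673 by setting. miR-293 kept its lower value in Tff2-KO mice in all 24 alternatives and miR-294 in all 23 that tested it. Fits with sex, a replicate block, the methods' t-test or the brighter miRNAs alone reuse the same normalized values. With sex and replicate numbers balanced between genotypes, their direction could not differ from the main fit. The readings of miR-294 lay at or under the floor, so its direction has no meaning. miR-295 turned to lower in Tff2-KO mice with no normalization (−0.18), median scaling (−0.21), upper quartile scaling of the miRNAs above the floor (−0.58) or of all miRNAs (−0.21). These scalings also moved the median log2 difference of all miRNAs to −0.08, −0.12, −0.48 and −0.12, and the higher share of the calls at unadjusted p under 0.05 to 16.1%, 28.9%, 4.65% and 27.6%, against 40.3%, so the direction of members near 0 is relative to the scaling. Under the same 4 settings the female over male difference of miR-292-3p turned to −0.20, −0.18, −0.31 and −0.088. Leaving out each mouse gave −0.12 to 0.15 for miR-295, −0.33 to 0.040 for miR-290-3p, −1.19 to 0.29 for miR-291a-3p, −0.49 to 0.22 for miR-291b-3p and −0.19 to 0.051 for miR-292-3p (Tff2-KO over WT), and −0.070 to 0.20 for miR-292-3p and −0.18 to 0.024 for miR-293 by sex. Over all miRNAs, 4 passed between genotypes with normexp and 6 when the brighter 355 alone were tested, against 0. Among those 355 miR-293 was the only member, and it did not pass (adjusted p = 0.511, limma). At unadjusted p under 0.05 the genotype count was 129 with upper quartile scaling above the floor, against 67, and 42 (without Tff2-KO mouse 4) to 96 (without WT mouse 4) without single mice. The sex count was 28 among the brighter miRNAs, fewer being tested, against 56. The count for genotype by sex was 41 with upper quartile scaling above the floor, against 71, and 47 (without Tff2-KO mouse 2) to 88 (without Tff2-KO mouse 4) without single mice. The shares of member readings above the floor became 16.7%, 85.7% and 19.0% in Tff2-KO mice (2 times the lowest size, 0, fixed 100) and 21.4%, 88.1%, 97.6% and 19.0% in WT mice (the same with the 1st percentile second), and 42.9% to 57.1% in Tff2-KO and 65.7% to 71.4% in WT mice without single mice. The methods' t-test called 70 miRNAs at unadjusted p under 0.05 and 0 after Benjamini-Hochberg adjustment. The cause of these shifts was not tested. The replicate numbers name the mice, and in both genotypes the lower numbers are males and the higher numbers females. Same-numbered mice correlated at −0.17 to 0.11, and no mouse matched its own number best. A replicate block, which also takes up sex, gave 50 calls at unadjusted p under 0.05 in limma, against 67, with 0 after adjustment. The block cannot change the direction of a member, as each number holds a mouse of each genotype. Readings this near the floor, in steps of 4, limit what can be seen.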
